A study of Mus musculus with 17 samples.

Results

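The 39 genes described here encode lysosomal proteins and core autophagy machinery. They were listed by name, without a rule on their values, but with earlier results of these data known. All 39 were matched to an Ensembl identifier among the 38355 gene rows of the count files, and all 39 passed the filter on low counts in both age comparisons, with at least 90 counts in every library. They are membrane proteins of the lysosome (Lamp1, Lamp2, Laptm4a, Laptm4b, Laptm5, Cd63), the cholesterol exporters Npc1 and Npc2, 12 hydrolases and their cofactors, the calcium channel gene Mcoln1 together with Cln3, the transcription factors Tfeb and Tfe3, 5 genes of the proton pump (V-ATPase), 5 genes that start or build the autophagosome and 5 genes of the Atg8 family and its cargo receptor.

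Lysosomes are acidic organelles in which hydrolases break down proteins, lipids and sugars, and autophagy delivers cytoplasmic cargo to them inside double-membraned autophagosomes. The V-ATPase pumps protons into the lumen, Atg8-type proteins such as LC3 coat the growing autophagosome, and TFEB and TFE3 bind a short promoter element and switch on many of these genes. In brain, loss of single members causes storage diseases, among them neuronal ceroid lipofuscinosis (Ppt1, Tpp1, Cln3), Niemann-Pick disease type C (Npc1, Npc2) and alpha-mannosidosis (Man2b1), and phagocytic microglia are rich in lysosomes.

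PolyA RNA of the hippocampus of wild type C57BL/6J mice was sequenced at 3, 24 and 29 months of age (3M, 24M and 29M), with no treatment in any group. The 6 libraries of 24M and 5 of 3M were single-end, and those of 29M (3) and the remaining 3 of 3M were paired-end, so each aged group was set against 3M libraries of the same type, and no 3M library was shared. Mice of the 29M group had been bought at 24 months and kept until that age, and age and library type cannot be told apart between the aged groups. Counts per library ran from 19144461 to 28438296 in 3M single-end, from 9213474 to 19756411 in 24M, from 10977976 to 15054972 in 3M paired-end and from 10991389 to 13563541 in 29M. Libraries 1 and 4 of 24M differed by less than counting noise, with a ratio of observed to expected squared difference of 0.406 against at least 1.23 in all other of the 136 pairs. They were counted as 1 sample, which left 5 24M samples. The labels do not say whether each library came from a separate animal, so p-values measure only the spread between these samples, which may be technical. Markers of hippocampal neurons were present throughout, since none of the 8 genes of that list was at 0 in any library and their sum lay between 1209 and 1790 CPM, that is counts scaled to the TMM-adjusted size of the library.

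The promoter element of TFEB and TFE3 has the core CACGTG, which reads the same on both strands, and it was looked for in windows from 250 bases before to 50 bases after a transcript start (RefSeq, GRCm38.p6). A gene can have several such starts, with 32851 windows for 27025 genes. The table held 33 of the 39 genes, with 40 windows, and 9 of these carried the core (27.3%, against 8.09% of all genes in the table). The longer forms TCACGTG and its reverse complement CACGTGA, which contain the core, were found in 8 (24.2%, against 4.29%). These matches describe the sequence and are not measured binding sites. The stretch that holds the cores is shown for all 9 genes, because this core is the feature they share. Each core is in capitals with 17 bases on either side, 5′ to 3′ on the strand of the gene.
Lamp1: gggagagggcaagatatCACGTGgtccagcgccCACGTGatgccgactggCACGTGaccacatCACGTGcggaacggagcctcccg
Mcoln1: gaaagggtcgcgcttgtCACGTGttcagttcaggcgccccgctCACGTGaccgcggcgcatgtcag
Cln3: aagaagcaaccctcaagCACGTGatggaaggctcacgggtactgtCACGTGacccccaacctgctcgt
Gla: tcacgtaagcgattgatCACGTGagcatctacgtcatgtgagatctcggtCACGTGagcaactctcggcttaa
Glb1: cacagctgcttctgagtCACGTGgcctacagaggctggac
Atp6v1a: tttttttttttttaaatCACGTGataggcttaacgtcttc
Atp6v0d1: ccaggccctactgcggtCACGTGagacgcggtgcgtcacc
Atg7: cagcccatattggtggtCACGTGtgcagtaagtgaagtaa
Atg5: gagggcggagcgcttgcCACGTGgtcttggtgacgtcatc
Lamp1, a major protein of the lysosomal membrane, held 4 cores within 86 bases of chr8:13159083-13159168 (+ strand), and Mcoln1, Cln3 and Gla held 2 each. The Mcoln1 stretch was chr8:3500431-3500496 (+), the Cln3 stretch chr7:126583335-126583402 (-) and the Gla stretch chrX:134601177-134601249 (-). The Cln3, Atg7 and Atp6v1a stretches lie inside the gene, downstream of its first annotated start. Beside these, the 9 included the hydrolase Glb1, the V-ATPase genes Atp6v1a and Atp6v0d1 and the autophagy genes Atg7 and Atg5. No core was in the windows of Laptm5 and Man2b1, which says only that these letters are not in this stretch.

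Most of the 39 genes differed little with age. Genes counted as called where the adjusted p was 0.05 or less (edgeR's quasi-likelihood test, Benjamini-Hochberg over all genes tested), and a stricter rule, the one used by the study, asked for a log2 fold change of at least 0.5 as well. At 24M, 3 of 39 genes were called higher, namely Man2b1, Laptm5 and Asah1, against 3.21% of the 15683 genes tested. At 29M, 2 of 39 were called higher, Laptm5 and Man2b1, against 2.32% of 15097. None was called lower at either age, against 2.37% and 0.662% of all genes. At an unadjusted p under 0.05, 10 of 39 genes lay above and 3 below 3M at 24M, against 13.96% and 12.1% of all genes, and 12 above and 1 below at 29M, against 9.86% and 7.48%. Without 24M replicate 2, which stood apart in its blood markers, none of the 39 was called at that age. Leaving out replicate 5 of 3M single-end instead gave 7 higher and 4 lower. With DESeq2, 5 were called higher and 2 lower at 24M, and 2 higher and 0 lower at 29M. For DESeq2 and for fits that left out a library, no share over all genes is given here or below. Their counts therefore stand without a background. None of the 39 passed the stricter rule in the main edgeR fits or in DESeq2. In the main edgeR fits 1.98% of all genes passed it at 24M and 1.45% at 29M. Leaving out each library in turn gave 0 to 1 of the 39 by this rule at each age.

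The median log2 fold change of the 39 genes was 0.02 at 24M and 0.08 at 29M, beside -0.0032 and -0.0021 over all genes tested. At 24M, 22 of the 39 were above 0 (56.4%, against 49.2% of all genes), and at 29M, 24 were (61.5%, against 49.4%). The values ran from -0.20 for Map1lc3a to 0.40 for Lamp2 at 24M, and from -0.48 for Glb1 to 0.44 for Man2b1 at 29M. The sign was the same at both ages for 27 of 39 genes (69.2%), compared with 59.7% of the 14898 genes tested at both. Summed over the 39 genes, the level was 7898 ± 115 CPM (SD, n = 5) in 3M single-end and 7965 ± 258 (n = 5) in 24M, and 7539 ± 67.8 (n = 3) in 3M paired-end and 7627 ± 39.2 (n = 3) in 29M. The means differed by less than the SD of either single-end group. The paired-end samples did not overlap, by a narrow margin, with 7460 to 7578 CPM at 3M and 7583 to 7656 CPM at 29M. Abundant genes weigh most in this sum, with Psap alone at a mean of 1966 CPM in 3M single-end and 1882 CPM in 3M paired-end. Replicate 3 of 24M stood apart, with a sum of 7542 CPM against 7990 to 8244 CPM in the other 24M samples, and was the lowest of its group in 22 of the 39 genes. It also had the highest share of reads outside annotated features among the single-end libraries (12.7%, against 8.59 to 10.4% in the others) and the highest summed neuron markers of the 24M samples (15359 CPM, against 12925 to 14020 CPM). The part of either in its values was not tested. Without this replicate, 1 of the 39 genes was called higher at 24M and none lower.

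**Figure D1:**
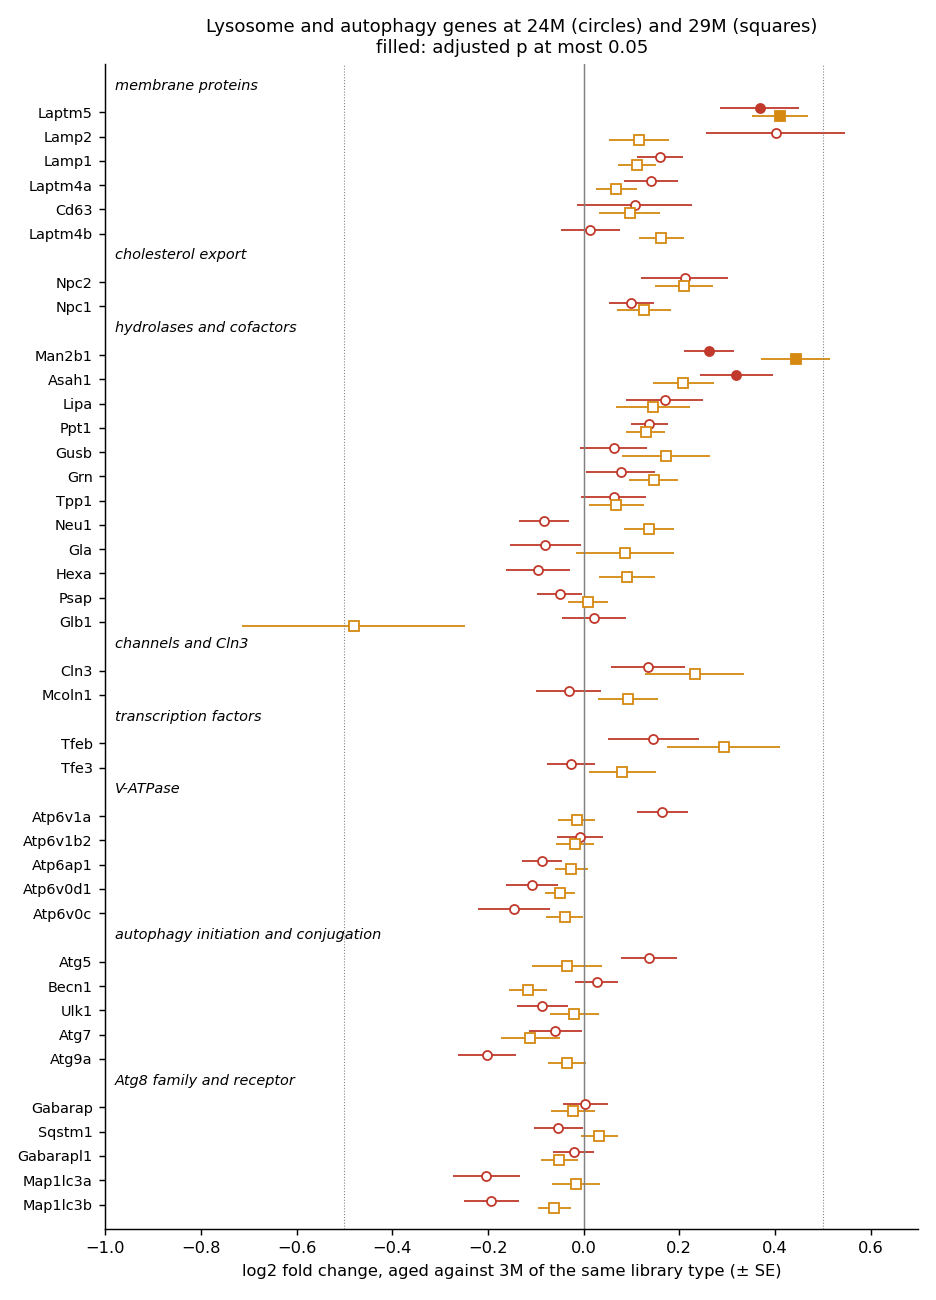
Log2 fold change of each of the 39 genes (x axis, ± SE), grouped by role, at 24M against 3M single-end (circles) and at 29M against 3M paired-end (squares). Filled symbols passed an adjusted p of 0.05, and dotted lines mark a log2 fold change of 0.5 either way. The 5 filled symbols are Laptm5 and Man2b1 at both ages and Asah1 at 24M, and the wide bar of Glb1 at 29M comes from 1 of the 3M libraries.

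Role groups differed in where their members lay. All 6 membrane proteins had log2 fold changes above 0 at both ages, with medians of 0.15 at 24M and 0.11 at 29M, and 1 of them (Laptm5) was called at each age. Both cholesterol exporters were above 0 at both ages. Of the 12 hydrolases and cofactors, 8 were above 0 at 24M (median 0.06) and 11 at 29M (median 0.13), with 2 and 1 called higher. Of the 5 V-ATPase genes, 1 was above 0 at 24M and none at 29M, with medians of -0.09 and -0.03. Medians of the autophagosome genes were -0.06 and -0.04, and those of the Atg8 family and receptor -0.05 and -0.02. None of the 15 genes of these last 3 groups was called at either age in the main edgeR fit. Of all genes tested, 3.21% were called higher and 2.37% lower at 24M, and 2.32% and 0.662% at 29M. At such shares, no call among 15 genes is not unusual. Without 3M single-end replicate 5, Map1lc3b, Map1lc3a, Atg9a and Atp6v0d1 were called lower at 24M. No difference between role groups was tested.

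Laptm5 encodes a lysosomal membrane protein of blood-derived and microglial cells. Its 3M single-end samples were at 37.1, 47.4, 35.2, 38.9 and 37.6 CPM, and its 24M samples at 49.2, 55.9, 51.2, 44.4 and 52.6 CPM. One 3M sample, replicate 2, reached above the lowest 24M sample, so the groups overlapped. In the paired-end libraries, 3M samples were at 34.6, 35.9 and 35.5 CPM and 29M samples at 45.9, 46.2 and 48.6 CPM, with no overlap. Laptm5 rose by a log2 fold change of 0.37 ± 0.08 (SE, n = 5 and 5, adjusted p = 0.027) at 24M and of 0.41 ± 0.06 (n = 3 and 3, adjusted p = 0.0019) at 29M, that is 1.29-fold and 1.33-fold. The call at 24M was lost without 24M replicate 2, 3 or 6 or 3M single-end replicate 1, 3 or 4, where the log2 fold change stayed at 0.33 or more and the adjusted p reached 0.080, and also without 24M replicates 1 and 4 together (adjusted p = 0.058). That at 29M held without each library in turn and was lost with all 4 groups in 1 fit (0.41 ± 0.10, adjusted p = 0.069).

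Man2b1 encodes the lysosomal alpha-mannosidase, which trims mannose from the sugar chains of glycoproteins. Its 3M single-end samples lay at 58.6, 58.8, 53.8, 54.7 and 57.4 CPM, and its 24M samples at 65.1, 69.6, 63.0, 69.9 and 72.6 CPM, so that all 24M samples were above all 3M samples. The paired-end values were 45.2, 48.3 and 55.4 CPM at 3M and 63.5, 69.5 and 69.1 CPM at 29M, again without overlap. It rose by a log2 fold change of 0.26 ± 0.05 (adjusted p = 0.017) at 24M and 0.44 ± 0.07 (adjusted p = 0.0046) at 29M, 1.20-fold and 1.36-fold. Of the 24M fits that left out 1 library, only that without 24M replicate 2 lost the call (adjusted p = 0.058), and at 29M the value lay between 0.38 and 0.53 without each library and stayed called.

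Asah1 encodes acid ceramidase, which splits ceramide into sphingosine and a fatty acid. Its 3M single-end samples were at 40.4, 47.1, 42.2, 42.5 and 53.5 CPM and its 24M samples at 55.7, 55.5, 60.8, 52.1 and 57.4 CPM. Replicate 5 of 3M was the sample that overlapped. At 29M it was at 50.6, 50.5 and 46.3 CPM against 40.5, 45.0 and 41.6 CPM, with the 29M samples all higher. Asah1 rose by 0.32 ± 0.08 on the log2 scale (adjusted p = 0.032) at 24M, and at 29M the log2 fold change was 0.21 ± 0.06 (adjusted p = 0.11). The 24M call was lost without the same 6 libraries as that of Laptm5, with an adjusted p of up to 0.079, and without 24M replicates 1 and 4 together (adjusted p = 0.069). With GC content and length offsets the log2 fold change was 0.21, still called (adjusted p = 0.044).

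A further 5 genes had the smallest unadjusted p-values among those not called. Ppt1, a thioesterase that removes palmitate from proteins, was at 108.8, 109.8, 107.8, 114.5 and 111.3 CPM in 3M single-end and at 122.1, 123.9, 119.6, 120.3 and 121.4 CPM in 24M. Its 3M paired-end samples were at 95.2, 103 and 99.99 CPM and its 29M samples at 109, 108 and 109. The groups did not overlap at either age, and log2 fold changes were 0.14 ± 0.04 (adjusted p = 0.054) and 0.13 ± 0.04 (adjusted p = 0.11). Npc2, the luminal protein that hands cholesterol to Npc1, had log2 fold changes of 0.21 ± 0.09 (adjusted p = 0.16) and 0.21 ± 0.06 (adjusted p = 0.083). In single-end libraries it was at 71.9, 77.7, 60.2, 85.9 and 84.8 CPM at 3M and at 85.6, 94.5, 77.4, 93.8 and 88.9 CPM at 24M, with overlap, and in paired-end ones at 63.2, 73.8 and 71.5 CPM against 83.4, 80.2 and 77.9 CPM, without.

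Laptm4b, a lysosomal membrane protein related to Laptm5, was at 101, 97.5, 95.9, 120 and 111 CPM in 3M single-end and at 105, 104, 105, 111 and 104 CPM in 24M, where the log2 fold change was 0.01 ± 0.06. In 29M it was at 97.3, 104 and 99.04 CPM against 87.4, 94.5 and 86.3 CPM at 3M (0.16 ± 0.05, adjusted p = 0.086), and the 29M samples were all higher. The remaining genes of this set of 5 lay in the other direction. Map1lc3b, the LC3 isoform most used to mark autophagosomes, was at 135, 131, 135, 155 and 127 CPM in 3M single-end and at 123, 120, 111, 123 and 121 CPM in 24M, all lower. Its log2 fold change was -0.19 ± 0.06 (adjusted p = 0.061) at 24M, and at 29M, with 165, 164 and 169 CPM against 174, 176 and 169, it was -0.06 ± 0.03 (adjusted p = 0.38). Atg9a, the membrane scramblase of early autophagosomes, was at 173, 158, 167, 162 and 143 CPM at 3M and at 141, 138, 124, 146 and 149 CPM at 24M, with overlap (-0.20 ± 0.06, adjusted p = 0.064). Its paired-end values were 141, 139 and 135 CPM at 3M and 132, 131 and 142 CPM at 29M (-0.03 ± 0.04, adjusted p = 0.72). With GC content and length offsets the 24M log2 fold changes of Ppt1 and Atg9a were 0.058 and -0.13, and that of Npc2 was 0.14 without 3M single-end replicate 3. Some alternative edgeR or DESeq2 settings called Ppt1, Map1lc3b and Atg9a at 24M, with adjusted p down to 0.011, 0.015 and 0.019. At 29M the lowest adjusted p over these settings was 0.012 for Npc2 and 0.040 for Laptm4b. Of the 39 genes, 12 overlap another gene on the other strand, among them Map1lc3b (Zcchc14), Atg9a (Ankzf1), Ppt1 (Cap1) and Grn (Fam171a2). The study's methods name a library kit that does not mark strand (TruSeq RNA Sample Prep Kit). They list the overlap mode as the sole HTSeq setting that was changed and do not name the strand setting. These overlaps are of whole gene spans, introns included, so how far reads of such pairs were mixed or left out is not known.

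Tfeb, one of the transcription factors, was the least abundant gene of the set per length, and Tfe3 ranked 35 of 39. Tfeb had 10.003, 8.1, 8.87, 9.63 and 8.05 CPM in 3M single-end and 8.90, 11.2, 9.23, 10.2 and 9.998 CPM in 24M, with overlap. It had 7.98, 8.84 and 8.09 CPM in 3M paired-end and 9.0, 11.2 and 10.46 CPM in 29M, without. Its log2 fold changes were 0.15 ± 0.10 (adjusted p = 0.35) and 0.29 ± 0.12 (adjusted p = 0.22). With GC content and length offsets that at 24M was 0.29 (adjusted p = 0.061). Tfe3 was at 39.4, 37.8, 40.7, 40.6 and 37.2 CPM in 3M single-end, 38.4, 37.3, 38.2, 38.1 and 40.3 CPM in 24M, 37.4, 38.0 and 33.0 CPM in 3M paired-end and 36.8, 40.0 and 38.1 CPM in 29M. The groups overlapped in both comparisons, and its log2 fold changes were -0.03 ± 0.05 and 0.08 ± 0.07. Of the genes with the CACGTG core in the window, the median log2 fold change was 0.02 at 24M and -0.01 at 29M (n = 9), and of those without, 0.03 and 0.09 (n = 24). The 9 include Glb1, whose log2 fold change at 29M was -0.48, and 0.03 without 3M paired-end replicate 2. No difference between the genes with and without the core was tested.

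Mcoln1, the calcium channel of the lysosomal membrane, was at 58.2, 50.8, 51.8, 51.8 and 43.6 CPM in 3M single-end and 48.6, 49.1, 50.3, 52.1 and 50.6 CPM in 24M (log2 fold change -0.03 ± 0.07). In the paired-end libraries it was at 50.004, 46.1 and 48.4 CPM and at 53.2, 47.7 and 52.8 CPM (0.09 ± 0.06), and the groups overlapped in both. Atp6v1b2, the most abundant V-ATPase gene here per length and the B subunit of brain, was at 829, 804, 869, 801 and 728 CPM in 3M single-end and 820, 788, 770, 813 and 820 CPM in 24M. Its 3M paired-end samples were at 713, 669 and 685 CPM and its 29M samples at 671, 694 and 676 CPM. Its log2 fold changes of -0.01 ± 0.05 and -0.02 ± 0.04 were within the spread of the samples.

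**Figure D2:**
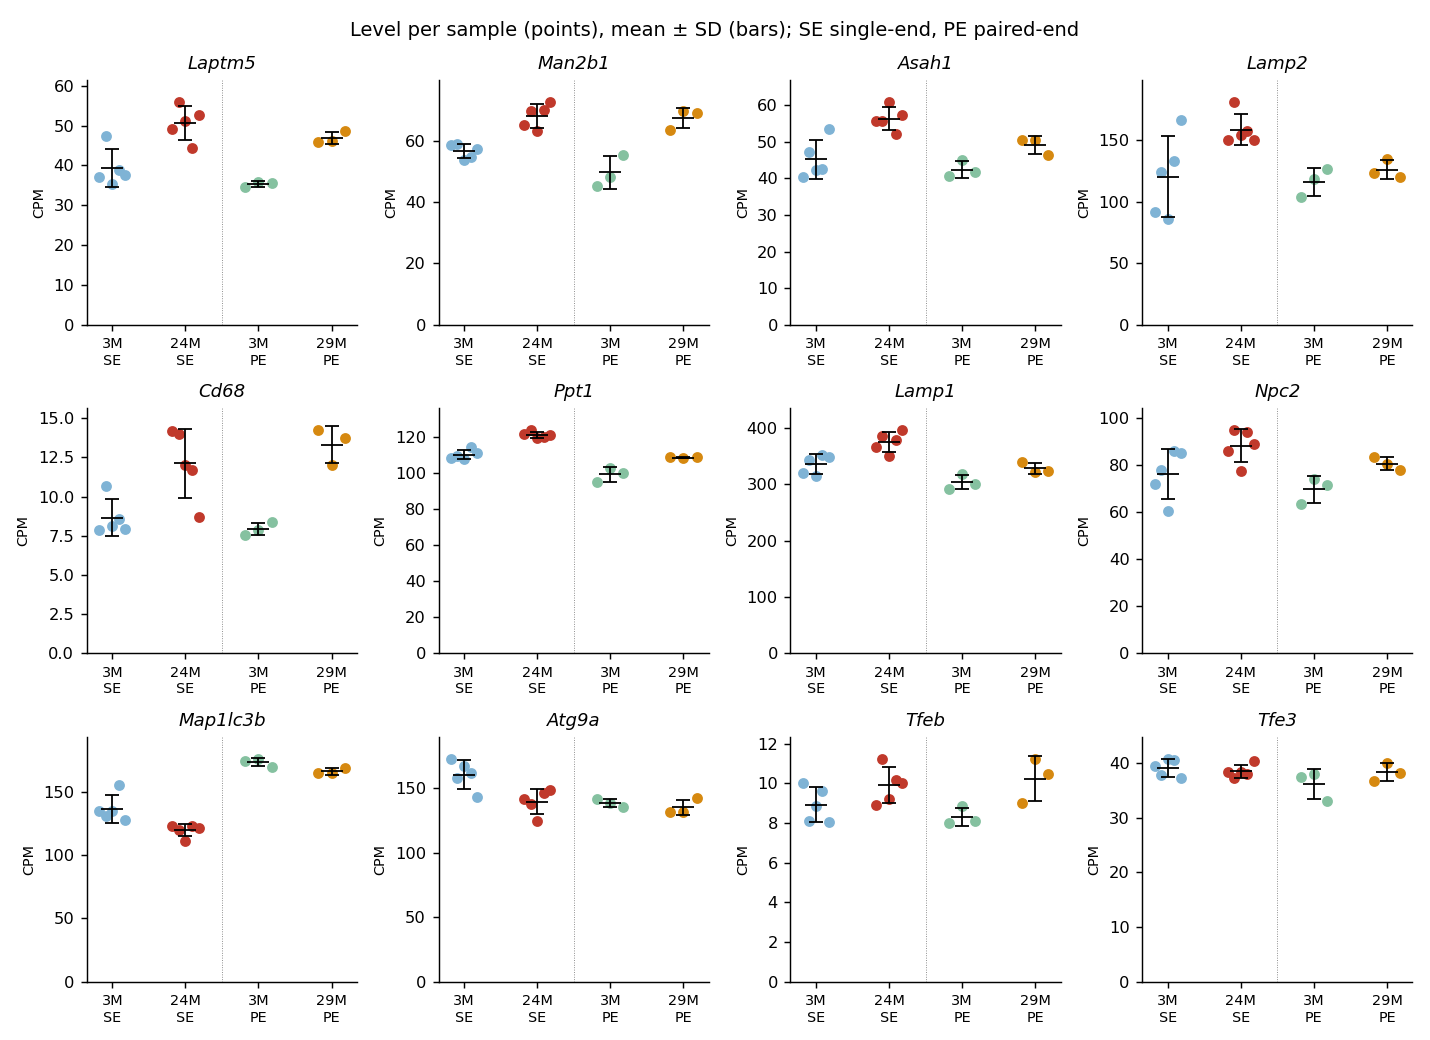
Level of 12 genes in every sample (y axis, CPM from 0; points are samples, bars the mean ± SD) in the 4 groups, with single-end libraries left and paired-end ones right of the dotted line. Man2b1 and Ppt1 are without overlap at both ages, Map1lc3b lies lower at 24M and 29M, and Tfe3 overlaps in both comparisons.

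Whether all aged samples lay on 1 side of all 3M samples was counted as well. At 24M, 2 of 39 genes (Man2b1, Ppt1) were entirely above, against 3.15% of all genes, and 1 (Map1lc3b) entirely below, against 3.42%. At 29M, with 3 samples a group, 10 of 39 were entirely above, against 11.9%, and 4 entirely below, against 10.5%. The 10 were Laptm5, Man2b1, Asah1, Ppt1, Npc2, Laptm4b, Lamp1, Grn, Neu1 and Tfeb, and the 4 were Map1lc3b, Becn1, Atg7 and Atp6v0d1. Becn1, a scaffold of the lipid kinase that starts autophagosomes, was at 100.1, 97.9 and 98.3 CPM in 3M and at 91.6, 93.0 and 88.9 CPM in 29M (log2 fold change -0.12 ± 0.04, adjusted p = 0.15).

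The difference between the age effects was tested on its own in 1 fit of all 4 groups, where it also carries the difference in library type. None of the 39 genes passed, nor did any of all 16055 genes (0.0%), and DESeq2 called none of the 39 either. At an unadjusted p under 0.05 there were 3 of 39 genes and 1674 of all. The smallest p was that of the sialidase Neu1 (0.0080, adjusted p = 0.39), whose log2 fold changes were -0.08 ± 0.05 for 24M and 0.14 ± 0.05 for 29M.

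The mean of the age effects in the same fit, a contrast added after the single ages had been seen, called 5 of 39 genes higher, against 3.84% of all genes, and 0 lower, against 2.78%, with DESeq2 calling 5 and 1. The 5 were Man2b1 (0.35 ± 0.05, adjusted p = 0.00013), Laptm5 (0.39 ± 0.06, adjusted p = 0.00075), Ppt1 (0.13 ± 0.03, adjusted p = 0.0077), Asah1 (0.26 ± 0.06, adjusted p = 0.0100) and Lamp1 (0.13 ± 0.04, adjusted p = 0.032). Of these, Lamp1 lost the call without 24M replicate 2 or 6, any 29M replicate, 3M paired-end replicate 1 or 3 or 3M single-end replicate 1, with an adjusted p of up to 0.12, and the other 4 kept it without each of the 17. Without a filter on low counts the calls of Ppt1 (adjusted p = 0.051) and Lamp1 (adjusted p = 0.068) were lost, and with GC content and length offsets that of Ppt1, at a log2 fold change of 0.078 (adjusted p = 0.072). Lamp1, which with Lamp2 forms much of the lysosomal membrane, was at 321, 344, 315, 353 and 349 CPM in 3M single-end and 367, 386, 350, 379 and 396 CPM in 24M, where 1 sample, replicate 3, lay within the 3M range. It was at 293, 318 and 301 CPM in 3M paired-end and 340, 322 and 324 CPM in 29M, without overlap. Its log2 fold changes were 0.16 ± 0.05 (adjusted p = 0.068) and 0.11 ± 0.04 (adjusted p = 0.17).

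Markers of microglia moved with the called genes. More cells of a type and more RNA per cell, or fewer and less, cannot be told apart in such whole-tissue RNA. Of 11 microglia markers, 6 rose at each age, with median log2 fold changes of 0.35 and 0.32, and none was at 0 in any library. Their sum, led by Csf1r, was 363 ± 22.3 CPM in 3M single-end and 427 ± 11.04 in 24M, and 340 ± 2.04 in 3M paired-end and 414 ± 4.72 in 29M, without overlap in either comparison. Laptm5, Man2b1 and Asah1 are not in that list, and their levels were set against its sum as a ratio. The level of Laptm5 equalled 10.8 ± 1.004% of the sum in 3M single-end and 11.9 ± 0.906% in 24M (n = 5 and 5, two-sided exact permutation p = 0.12), and 10.4 ± 0.174% and 11.3 ± 0.230% in the paired-end groups (exact permutation p = 0.10, the smallest that 3 against 3 samples allow). That of Man2b1 equalled 15.6 ± 0.856% and 15.9 ± 1.14% (exact permutation p = 0.67), and 14.6 ± 1.59% and 16.3 ± 0.695% (exact permutation p = 0.20). That of Asah1 equalled 12.4 ± 0.890% and 13.2 ± 0.763% (exact permutation p = 0.17), and 12.5 ± 0.6254% and 11.9 ± 0.716% (exact permutation p = 0.50). The lowest adjusted p over these 6 comparisons, which were added after the levels had been seen, was 0.30. With 3 against 3 samples, none of the paired-end ones could fall below 0.05. The Laptm5 ratios there did not overlap (10.2 to 10.5% at 3M, 11.2 to 11.6% at 29M). The microglia response genes had medians of 0.62 and 0.75 (7 of 10 and 6 of 9 called higher). Of these, 1 (Cd68) is also in the pathway lists used here, which do not hold the lysosomal protease gene Ctsd. For other cells, the median log2 fold changes at 24M and 29M were 0.05 and 0.05 for astrocytes (3 and 2 of 10 called higher), 0.14 and 0.22 for oligodendrocytes (0 and 1 of 9), 0.01 and -0.05 for neurons (0 of 10), 0.0047 and -0.14 for endothelial cells and pericytes (1 higher and 1 lower of 8 at 24M, 0 at 29M) and 1.06 and 0.66 for blood and border macrophages (0 of 8 and 2 of 6 higher). The sum of the last list was 505 CPM in 24M replicate 2 and at most 156 CPM in every other library.

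**Figure D3:**
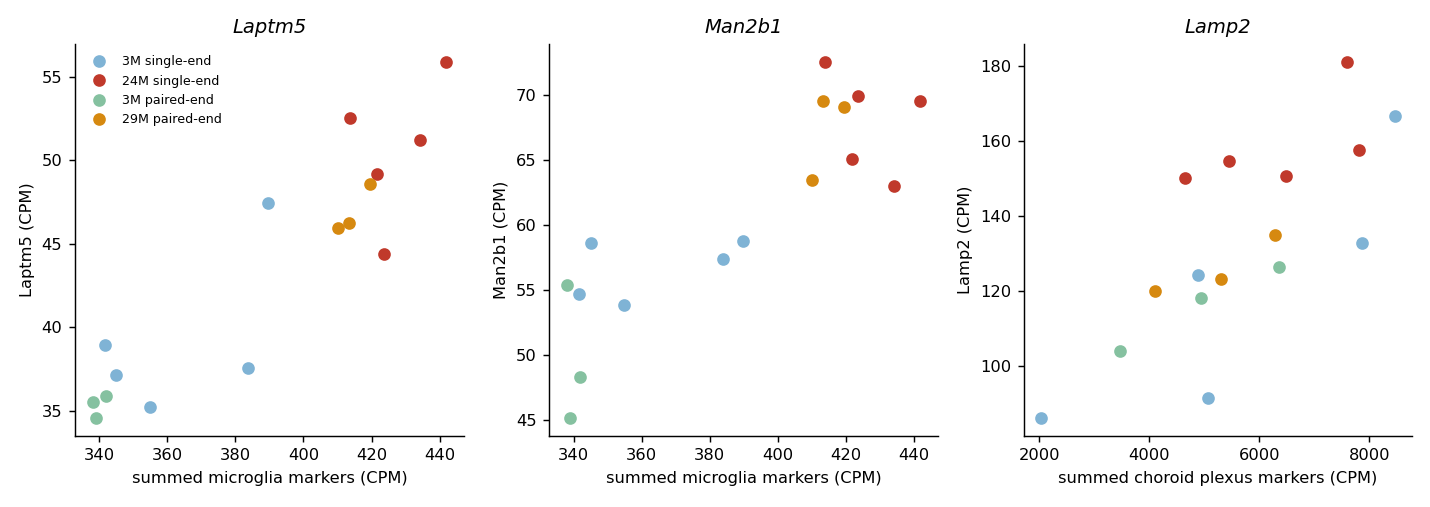
Laptm5 and Man2b1 against the summed microglia markers, and Lamp2 against the summed choroid plexus markers, all in CPM, with 1 point a sample and colours for the 4 groups. Aged samples lie to the right of and above the 3M samples in the first 2 panels, except that for Laptm5 1 3M sample reaches the 24M range, and in the third the 3M single-end samples spread along both axes.

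Lamp2 was not called at 24M, where its log2 fold change was 0.40 ± 0.15 (adjusted p = 0.11). With GC content and length offsets the value was 0.20 (adjusted p = 0.29), and with all 4 groups in 1 fit it was 0.40 and called (adjusted p = 0.048). One isoform of its product is the lysosomal receptor of chaperone-mediated autophagy. The 3M single-end samples were at 91.6, 124, 86.2, 133 and 167 CPM, the widest spread of any of the 39 genes in that group (coefficient of variation 27.3%, median 6.81%), and the 24M samples at 150, 181, 155, 158 and 151 CPM. The summed choroid plexus markers, 7 genes led by Ttr and none at 0 in any library, were 5072, 4886, 2042, 7864 and 8460 CPM in the same 3M samples and 4649, 7596, 5447, 7806 and 6485 CPM in the 24M samples. Replicate 3 was the lowest and replicate 5 the highest 3M sample in both Lamp2 and the markers. Without 3M single-end replicate 5, the log2 fold change of Lamp2 was 0.54 and it was called. In the paired-end libraries Lamp2 was at 104, 118 and 126 CPM and at 123, 135 and 120 CPM (0.12 ± 0.06, adjusted p = 0.38), with marker sums of 3477, 4940 and 6353 CPM and of 5298, 6280 and 4112 CPM. The part of choroid plexus RNA in the Lamp2 values was not tested.

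Glb1, the lysosomal beta-galactosidase, had the lowest log2 fold change of the set at 29M, -0.48 ± 0.23 (adjusted p = 0.31). That value came from 1 library. The 3M paired-end samples were at 25.6, 57.1 and 26.6 CPM and the 29M samples at 25.1, 27.7 and 27.0 CPM, so replicate 2 of 3M, with 873 counts against 301 and 296 in the other 3M libraries, stood alone. Without it the log2 fold change was 0.03 ± 0.07. With all libraries and no filter on low counts Glb1 was called lower (-0.48 ± 0.08, adjusted p = 3.8e-08). In the single-end libraries Glb1 was the steadiest of the 39 genes at 3M, with 29.1, 28.7, 27.9, 29.2 and 29.4 CPM, and 24M was at 26.8, 29.6, 27.6, 28.6 and 34.4 CPM (0.02 ± 0.07). In 3M paired-end replicate 2, Glb1 was 2.19 times the mean of the other 3M libraries, a ratio that 7 of 11838 genes above 5 CPM reached, Glb1 included. The 10 neighbouring genes above 5 CPM within 500000 bases had ratios of 0.928 to 1.14, and Tmppe, which overlaps Glb1 on the same strand, was at 24.3 CPM there against 24.5 and 24.3 CPM.

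**Figure D4:**
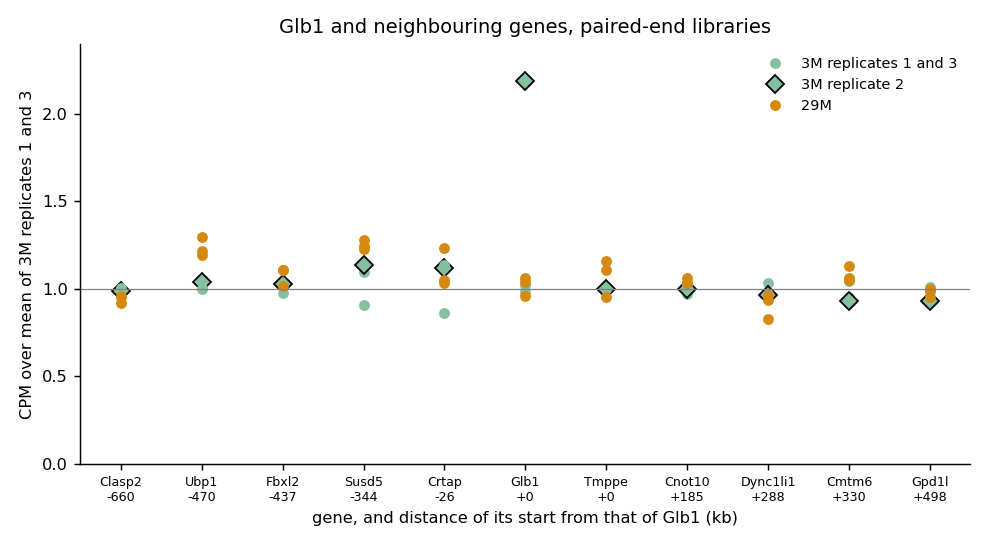
Level of Glb1 and its 10 neighbours in the 6 paired-end libraries, as CPM over the mean of 3M replicates 1 and 3 (y axis), with genes in order along the chromosome and the distance of their starts from that of Glb1 below each name. The diamond of 3M replicate 2 is at 2.19 for Glb1 and between 0.928 and 1.14 for all neighbours.

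Levels can be compared between genes per kilobase of exon. Psap, the precursor of the saposins that help sphingolipid hydrolases, was the most abundant at 696 CPM per kb (mean of the 4 groups), followed by Gabarapl1 at 284 and Atp6v1b2 at 140, and Cln3 at 2.19 and Tfeb at 1.65 were the least. The median coefficient of variation of the 39 genes within a group was 6.81% in 3M single-end, 4.75% in 24M, 4.04% in 3M paired-end and 3.62% in 29M, beside 9.37%, 8.21%, 6.12% and 5.69% over 14586 genes above 1 CPM, which include many of lower counts. Between the single-end and paired-end 3M libraries, which are different samples and also differ in read length, a pair of genes differed by more than 1 on the log2 scale. Atp6v0c, the ring subunit of the V-ATPase, was at 23.0 CPM per kb in 3M single-end and 87.3 in 3M paired-end, and Cd63, a tetraspanin of late endosomes, at 9.54 and 20.8, log2 differences of 1.93 and 1.12. Such a difference above 1 was seen in 3.44% of 14584 genes, and the other 37 members lay between -0.36 and 0.34. Both genes have annotated processed copies elsewhere in the genome, and their reads may be shared with these, so their levels are uncertain. Within their library type, neither was called with age (log2 fold changes at 24M of -0.15 ± 0.08 for Atp6v0c and 0.11 ± 0.12 for Cd63, and at 29M of -0.04 ± 0.04 and 0.10 ± 0.06).

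**Figure D5:**
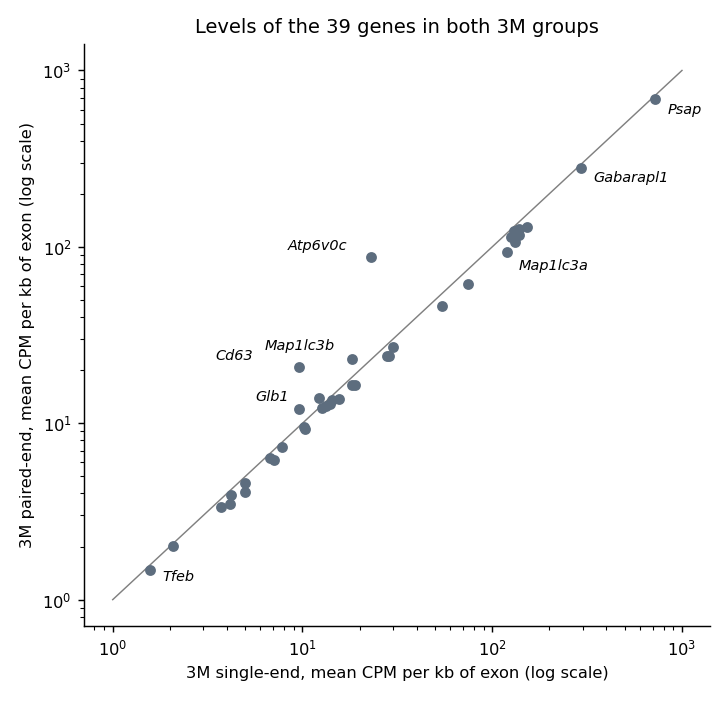
Mean CPM per kb of exon of the 39 genes in 3M single-end (x axis) and 3M paired-end libraries (y axis), both on log scales, with the line of equal levels. Atp6v0c and Cd63 stand above the line, at log2 differences of 1.93 and 1.12, and the other 37 genes lie between -0.36 and 0.34.

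Other genes of the same pathways, 133 in 7 lists of which 129 were tested, were centred on 0, with medians of -0.0012 (24M) and 0.00036 (29M) on the log2 scale. Of these, 6 were called higher and 1 lower at 24M, beside 3.21% and 2.37% of all genes, and 3 higher and 0 lower at 29M, beside 2.32% and 0.662%. Of 27 further hydrolases, 2 were called higher at each age and none lower, with medians of 0.03 at 24M and 0.10 at 29M, and 17 and 18 of them lay above 0. Ids, an iduronate sulfatase, was called at 24M (0.34 ± 0.07, adjusted p = 0.017). That call was lost without 24M replicate 2 (adjusted p = 0.057) and with GC content and length offsets, where the log2 fold change was 0.17 (adjusted p = 0.059).

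Cd68, a lysosomal glycoprotein of macrophages and microglia, rose by 0.498 ± 0.128 on the log2 scale (adjusted p = 0.041) at 24M and by 0.75 ± 0.11 (adjusted p = 0.0019) at 29M, where it passed the stricter rule. It was at 7.87, 10.7, 8.12, 8.56 and 7.95 CPM in 3M single-end and 14.2, 13.96, 12.01, 11.7 and 8.71 CPM in 24M, with overlap, and at 7.56, 7.85 and 8.36 CPM against 14.2, 11.98 and 13.7 CPM in 29M, without. The 24M call was lost without 24M replicate 2, 3 or 5 or 3M single-end replicate 1, 3 or 4 (adjusted p of up to 0.11), and without 24M replicates 1 and 4 together (adjusted p = 0.10). Lamp5, a neuronal relative of the Lamp proteins, was the only pathway gene called lower, at 24M by -0.65 ± 0.18 (adjusted p = 0.049). Its 3M single-end samples were at 46.9, 61.5, 44.5, 97.4 and 51.9 CPM and its 24M samples at 43.2, 35.7, 38.6, 37.4 and 36.7 CPM, with 3M replicate 4 far above the rest. The call was lost without 24M replicate 1, 2, 3, 5 or 6 or 3M replicate 1 or 2 (adjusted p of up to 0.12), and without 24M replicates 1 and 4 together (adjusted p = 0.081). Without 3M replicate 4 the value was -0.41 and stayed called (adjusted p = 0.035). At 29M it was at 35.2, 33.2 and 38.4 CPM against 36.9, 36.3 and 36.2 CPM (-0.03 ± 0.07).

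Lists of the machinery itself were close to 0. Of 13 further V-ATPase genes tested, none was called, with medians of -0.01 at 24M and -0.02 at 29M. None of 25 further autophagy genes was called either, with medians of -0.06 and -0.01, and 17 and 16 of them lay below 0. Of 18 genes of the mTORC1 complex and its lysosomal anchor that were tested, Fnip1, a partner of folliculin, was called at 24M (0.38 ± 0.08, adjusted p = 0.026) and none at 29M. Of 20 receptor and fusion genes, the mitophagy receptors Bnip3 (0.31 ± 0.07, adjusted p = 0.023) and Bnip3l (0.32 ± 0.08, adjusted p = 0.034) were called at 24M, and at 29M their log2 fold changes were 0.04 ± 0.05 and 0.0023 ± 0.039. None of these 3 calls held without 24M replicate 2 (adjusted p of up to 0.077 for Fnip1, 0.064 for Bnip3 and 0.099 for Bnip3l over all libraries left out). That of Fnip1 was also lost without 24M replicate 3 or 3M single-end replicate 1 or 4, and that of Bnip3l without 24M replicate 3 or 6 or 3M single-end replicate 1, 2, 3 or 4. All 3 were lost as well without 24M replicates 1 and 4 together (adjusted p of 0.057 for Fnip1, 0.060 for Bnip3 and 0.073 for Bnip3l). With GC content and length offsets the log2 fold changes of Bnip3 and Bnip3l at 24M were 0.15 (adjusted p = 0.11) and 0.17 (adjusted p = 0.065), and neither was called, while Fnip1 was at 0.16 and called (adjusted p = 0.047). Of 16 further membrane proteins, Cd68 and Lamp5 were the called ones, and none of 10 ceroid lipofuscinosis and sorting genes was called.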

How the data were processed

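Per the labels and the study's methods, TruSeq polyA libraries were read by the authors as 1×50 or 2×100 bases, aligned to GRCm38.p2 with STAR 2.3.0 and counted per Ensembl gene with HTSeq (intersection-nonempty). The deposited values are raw counts, of which 23.9 to 40.3% were in rows that name no gene, left out here. Names came from GENCODE vM21 (36602 of 38355 identifiers). From the counts, edgeR 4.0.16 (R 4.3.3; filterByExpr, TMM, quasi-likelihood F test, Benjamini-Hochberg over all genes tested) was fitted to each aged group and its own 3M group, and to all 4 groups for the difference and the mean of the ages. SE was the log2 fold change over the root of F. CPM used TMM-scaled library sizes, exon length the union of exons. The authors' own tests used DESeq2, an alternative here (1.42.0). Scripts were tested on simulated data. Members and lists were chosen with earlier results of these data known. Values in every sample are given for called members, those filling up to 8 by smallest p, the member with the highest level per kb in role groups without one, and Tfeb and Tfe3. Lamp1, Lamp2 and Glb1, Becn1, Neu1, Cd63 and Atp6v0c were named after their values were seen, as were pathway genes short of the fold threshold. Replicate numbers do not pair samples. Some pathway genes counted here are not reported by name.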

Additional observations from a re-analysis of the deposited data

Results flagged for a closer look

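In 5 of 50 groups of 5 samples, the highest or lowest sample stood apart by more than 0.71 of the range of the group (Dixon's criterion). Chance gives about 2.5. The groups included those of the members with values in every sample above and of the summed marker lists. Cd68, a pathway gene, was not among them, and its 3M single-end replicate 2 also passed this criterion (10.7 CPM, against 7.87 to 8.56 CPM). Laptm4b was at 110.7 CPM in 24M replicate 5, against 104 to 105 CPM in the other 24M samples. Map1lc3b was at 155.4 CPM in 3M single-end replicate 4, against 127 to 135 CPM, and at 111.1 CPM in 24M replicate 3, against 120 to 123 CPM. Lamp2 was at 181.2 CPM in 24M replicate 2, against 150 to 158 CPM. The summed blood and border macrophage markers were at 505.1 CPM in the same 24M replicate 2, against 80.1 to 156 CPM in the other 24M samples, and Hbb-bs was the most abundant of them. Without that replicate none of the 39 genes was called at 24M. The calls of Laptm5 and Asah1 were lost without some other libraries as well. Over all 24M fits that left out a library, the lowest log2 fold changes of Man2b1, Laptm5 and Asah1 were 0.239, 0.330 and 0.281.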

How the results depend on the processing

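The library of lowest depth, 24M replicate 6, holds 9213474 counts, and the 29M comparison rests on 3 samples a group. At 24M, 3 genes were called higher and 0 lower. Higher and lower counts were 6 and 2 with the 24M libraries kept apart, 5 and 2 with DESeq2 and 7 and 3 with all 4 groups in 1 fit, and 1 gene was called higher without 24M replicates 1 and 4. Leaving out each library in turn gave 0 to 7 higher, 0 to 4 lower and 0 to 1 by the stricter rule. No gene was called without 24M replicate 2, and without 3M single-end replicate 5 there were 7 higher and 4 lower (Map1lc3b, Map1lc3a, Atg9a and Atp6v0d1). At 29M, 2 higher calls became 1 with all 4 groups in 1 fit (Laptm5, adjusted p = 0.069) and 4 with 1 lower (Glb1) without a filter on low counts. The stricter rule called 0 to 1 without each library. For the mean of both ages, 5 higher calls became 3 without the filter and 4 to 7 without each library. Lower calls were 1 with the 24M libraries kept apart, with DESeq2, with DESeq2 size factors, with a minimum of 1 CPM and without a filter, 2 with GC content and length offsets, and 0 to 3 without each library. The causes of these shifts were not tested.

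Same-numbered samples did not deviate together (correlations of -0.14 to 0.10), so numbers pair no samples. With the replicate block, 0 genes were called higher at 24M, 1 with the block and GC content and length offsets, and 3 for the mean of both ages with the block, where Ppt1, Asah1 and Lamp1 lost their calls (adjusted p = 0.066, 0.073 and 0.078).

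No called value changed sign, while others did, most of them near 0 (the exception is Glb1, which turns without 3M paired-end replicate 2). At 24M, Tfe3 was 0.016 with GC content and length offsets and 0.022 with these and the block, and Glb1 was -0.030 with the block and -0.028 with block and offsets. At 29M, Bnip3l was -0.0029 with DESeq2, -0.016 with the offsets, -0.0012 with all 4 groups in 1 fit and -0.015 with block and offsets. Without each library, 24M values ran from -0.019 to 0.065 for Laptm4b, -0.091 to 0.019 for Mcoln1, -0.049 to 0.021 for Atp6v1b2 and -0.035 to 0.036 for Glb1. Those at 29M ran from -0.038 to 0.0065 for Atp6v1b2, -0.68 to 0.028 for Glb1, -0.028 to 0.025 for Bnip3l and -0.091 to 0.016 for Lamp5. The mean of both ages ran from -0.0065 to 0.046 for Mcoln1, -0.0093 to 0.040 for Tfe3 and -0.33 to 0.018 for Glb1. The difference of the ages ran from -0.038 to 0.077 for Laptm5, -0.049 to 0.0061 for Ppt1, -0.075 to 0.071 for Npc2 and -0.045 to 0.019 for Atp6v1b2.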
